A study of Mus musculus with 5 samples.

Results

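The genes of the megalin and cubilin endocytic apparatus were described in the kidneys of mice after unilateral ischemia-reperfusion injury (UIRI). The 10 genes, Lrp2, Cubn, Amn, Dab2, Clcn5, Ocrl, Fcgrt, Lrpap1, Gipc1 and Tcn2, were chosen by their symbols among the 35478 genes listed for each mouse, with earlier results of these data known. RNA-seq had been done on the injured kidneys of 5 mice, 2 of the genotype Prdm16fl/fl and 3 of the genotype Ksp-Cre/Prdm16fl/fl, with 1 library for each mouse, to ask how loss of the transcription factor Prdm16 from tubular cells changes the injured kidney. All 5 mice carried PRDM16flox/flox, in which loxP sites flank exon 9, and the methods describe male littermates aged 7 to 8 weeks. The strain field of the labels gives C57BL/6J;129 and the sample titles give C57BL/6J. In all of them the left renal pedicle had been clamped for 35 minutes on a warm bath at 38.5°C, the right kidney was taken out on day 10, and tissue was collected 24 hours later, on day 11. Uninjured kidneys were not analysed here, so each difference compares 2 genotypes after the same injury. Ksp-Cre drives Cre recombinase from the promoter of the kidney-specific cadherin, which the study used as a driver for tubular epithelium and which is best known for activity in the distal nephron and collecting duct. The paper reports loss of PRDM16 from tubular epithelial cells only, by genotyping and by immunofluorescence with markers of the proximal and distal tubule. The methods name kidney cortex as the source of the RNA.

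Megalin, the product of Lrp2, and cubilin, the product of Cubn, are very large receptors on the brush border of the proximal tubule that take filtered proteins, vitamins and hormones back out of the forming urine. Cubilin has no membrane anchor of its own and reaches the surface bound to amnionless, the product of Amn, while the receptor-associated protein made from Lrpap1 helps megalin to fold. Adaptors made from Dab2 and Gipc1 bind the receptor tails, the chloride-proton exchanger made from Clcn5 and the phosphoinositide phosphatase made from Ocrl are needed in the endosome, the neonatal Fc receptor subunit made from Fcgrt returns IgG and albumin, and transcobalamin, made from Tcn2, carries the cobalamin that megalin takes up.

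The libraries held between 14939040 and 16425161 counted reads, and the lowest count of any of the 10 genes in any library was 473. Prdm16 itself stood at 25.3 and 20.02 CPM (counts per 1000000 counted reads, after TMM scaling between libraries) in Prdm16fl/fl kidneys 1 and 3, against 17.1, 17.0 and 17.99 CPM in the 3 Ksp-Cre/Prdm16fl/fl kidneys. Its log2 fold change was -0.38 (SE 0.15, adjusted p = 0.259, edgeR's quasi-likelihood test with Benjamini-Hochberg adjustment), and whole-gene counts do not separate reads of the floxed exon from the rest. One library stood apart. Ksp-Cre/Prdm16fl/fl mouse 3 had log2 CPM correlations across genes of 0.943 to 0.960 with the other libraries, whereas mice 1 and 2 of its group correlated at 0.991 and both Prdm16fl/fl libraries at 0.989. Its values are therefore given separately, and the results are given with and without it. Each p-value of a gene sets the difference between genotypes against the spread between mice within a genotype, with 2 and 3 mice. In whole tissue a gene can be lower because fewer cells of a type were present or because each cell held less of its RNA, which cannot be told apart here.

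Of the 10 genes, 7 had a lower and 3 a higher mean in Ksp-Cre/Prdm16fl/fl kidneys, and their median log2 fold change was -0.36, beside 0.04 over the 16394 genes tested. Scaling by library size alone moved that of all genes to 0.15 and that of the 10 genes to -0.26, and it turned the small difference of Clcn5 from lower to higher. In 5 genes (Lrp2, Cubn, Amn, Lrpap1 and Tcn2) all 3 Ksp-Cre/Prdm16fl/fl libraries lay below both Prdm16fl/fl libraries, in Ocrl all 3 lay above, and in Dab2, Clcn5, Fcgrt and Gipc1 the groups overlapped. Among all genes tested, 21.3% were separated downward in this way and 20.3% upward. No gene of the 10 passed an adjusted p of 0.05 with edgeR, with 0.872% of all genes lower and 0.104% higher at that threshold. At an unadjusted p under 0.05 in edgeR the count was 5 (Lrp2, Amn, Ocrl, Lrpap1 and Tcn2), beside 3090 of the 16394 genes tested. DESeq2 passed 3 at an adjusted p of 0.05, all lower (Amn, Lrpap1 and Tcn2), beside 5.80% of genes lower and 1.98% higher in that tool.

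**Figure D1:**
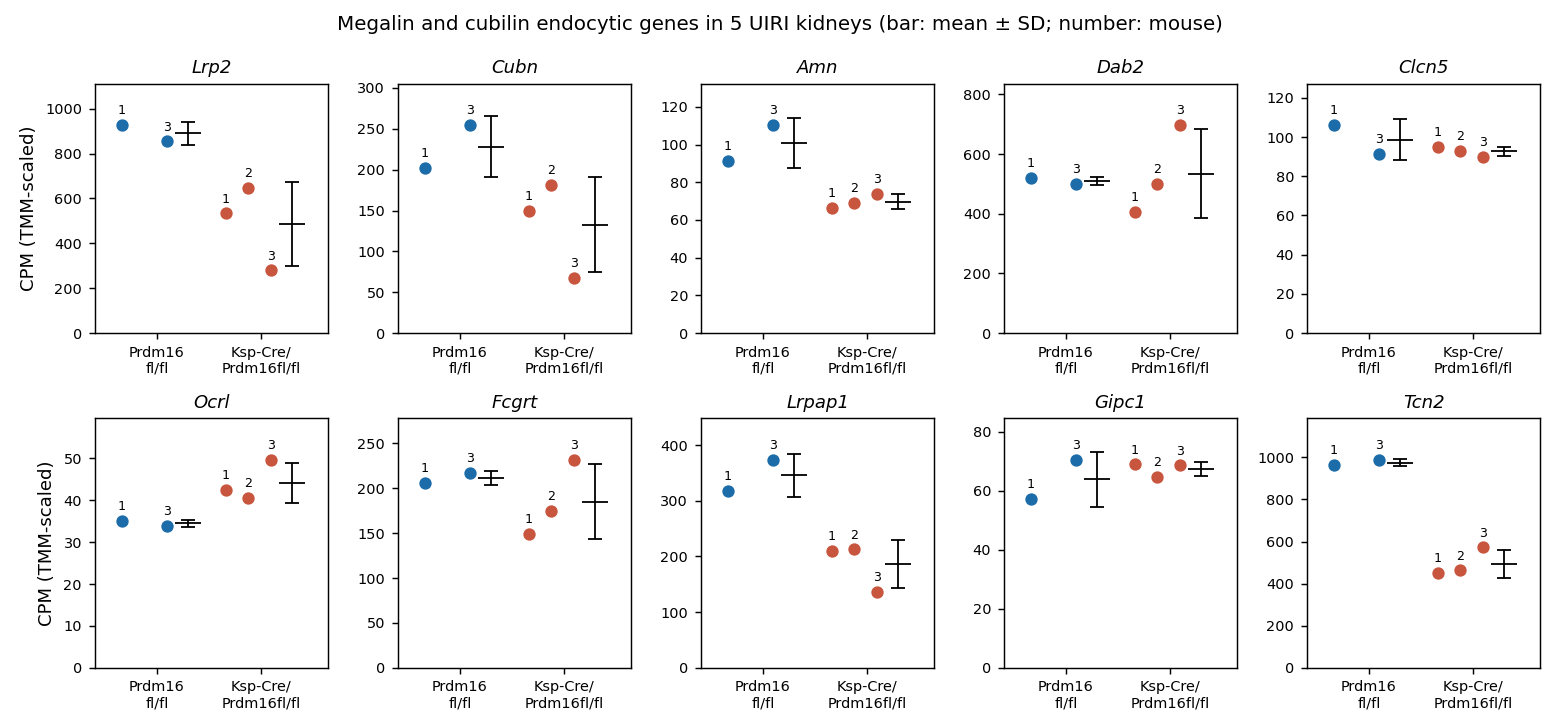
CPM of the 10 genes after TMM scaling, 1 panel per gene with a vertical axis from 0. Each point is 1 mouse with its number, blue for Prdm16fl/fl and red for Ksp-Cre/Prdm16fl/fl UIRI kidneys, and the bar beside the points is the mean ± SD (n = 2 and n = 3). Tcn2, Lrpap1, Lrp2, Cubn and Amn lie lower in all 3 red points, and Ocrl lies higher.

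How many genes passed depended on Ksp-Cre/Prdm16fl/fl mouse 3. When its library was left out, 5 of the 10 were lower at an adjusted p under 0.05 (Lrp2, Amn, Fcgrt, Lrpap1 and Tcn2) and none was higher, beside 11% of all genes lower and 7.82% higher in the same fit. Without it 7 genes were separated downward and 1 upward, where 30.7% and 32.6% of all genes were. The count of genes called across the genome moved in the same way, from 160 with all 5 libraries to 3053 without mouse 3, and it was 0 when any other library was left out.

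Lrp2, the megalin gene, spans chromosome 2 from 69254679 to 69416373 on the minus strand as the files give it (the build of the file coordinates is not named), with 79 merged exons and 15429 bp of exon sequence. It was measured at 927 and 854 CPM in the Prdm16fl/fl kidneys and at 533, 646 and 279 CPM in Ksp-Cre/Prdm16fl/fl kidneys 1, 2 and 3. All 3 Ksp-Cre/Prdm16fl/fl kidneys were below the lower Prdm16fl/fl mouse, and mouse 3 was by far the lowest. The means were 891 ± 51.2 CPM (SD, n = 2) and 486 ± 188 CPM (SD, n = 3), a log2 fold change of -0.87 (SE 0.34) with an adjusted p of 0.245 by edgeR's quasi-likelihood test. Without mouse 3 the log2 fold change was smaller, -0.59, and the adjusted p was 0.0165, although the library left out was the one with the largest difference. Over all alternatives run, the adjusted p of Lrp2 lay between 0.0165 and 0.734.

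Cubn, the cubilin gene (chromosome 2, 13281149 to 13496687, minus strand, 67 merged exons, 11325 bp), had 202 and 254 CPM in Prdm16fl/fl kidneys and 150, 181 and 67.6 CPM in Ksp-Cre/Prdm16fl/fl kidneys. The groups did not overlap, but mouse 2 of the Ksp-Cre/Prdm16fl/fl group came close to Prdm16fl/fl mouse 1, and mouse 3 was again the lowest. Means of 228 ± 37.2 and 133 ± 58.6 CPM gave a log2 fold change of -0.78 (SE 0.39, edgeR adjusted p = 0.345), which became -0.46 with an adjusted p of 0.0520 when mouse 3 was left out, the lowest of the alternatives, which reached 0.856. Cubn has 2 antisense neighbours inside its span, Gm13270 and LOC115489436, with at most 7 and 5 counts in any library.

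Lrpap1, the gene of the receptor-associated protein (chromosome 5, 35248834 to 35263043, minus strand, 2925 bp of exons), stood at 317 and 373 CPM in Prdm16fl/fl kidneys and at 210, 213 and 136 CPM in Ksp-Cre/Prdm16fl/fl kidneys. The first 2 Ksp-Cre/Prdm16fl/fl kidneys were nearly equal and mouse 3 was lower still, so the order of the libraries was that of Lrp2 and Cubn in placing mouse 3 last. The means were 345 ± 39.5 CPM and 186 ± 43.7 CPM (SD, n = 2 and n = 3), a log2 fold change of -0.89 (SE 0.22). Its adjusted p was 0.116 with edgeR's quasi-likelihood test, 0.00897 with DESeq2, and 0.00465 with edgeR without mouse 3, when the log2 fold change was -0.70. The adjusted p of its alternatives reached from that value to 0.644.

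In Lrp2, Cubn and Lrpap1 the groups did not overlap and Ksp-Cre/Prdm16fl/fl mouse 3 was the lowest library. Clcn5 was also lowest in that mouse, but its groups overlapped. For Lrp2, Cubn and Lrpap1 the 250 bases before the start sites are shown, as RefSeq gives them on GRCm38.p6. Each is read 5′ to 3′ on the strand of the gene. Capitals mark the GC box, GGGCGG or its complement CCGCCC, the short sequence that Sp1-type factors bind. The coordinates are chr2:69586030-69586279 for Lrp2, chr2:13491877-13492126 for Cubn and chr5:35105700-35105949 for Lrpap1, all on the minus strand, and they are of another build than the gene positions above.
Lrp2: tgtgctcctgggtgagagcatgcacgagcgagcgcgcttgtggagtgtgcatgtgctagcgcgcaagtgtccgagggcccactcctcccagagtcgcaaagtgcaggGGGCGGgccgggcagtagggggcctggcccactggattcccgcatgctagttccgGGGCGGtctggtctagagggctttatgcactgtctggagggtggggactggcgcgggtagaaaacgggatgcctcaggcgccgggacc
Cubn: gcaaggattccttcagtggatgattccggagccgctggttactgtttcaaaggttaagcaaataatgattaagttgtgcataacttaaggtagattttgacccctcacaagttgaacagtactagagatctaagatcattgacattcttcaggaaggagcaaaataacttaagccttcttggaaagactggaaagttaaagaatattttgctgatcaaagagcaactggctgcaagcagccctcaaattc
Lrpap1: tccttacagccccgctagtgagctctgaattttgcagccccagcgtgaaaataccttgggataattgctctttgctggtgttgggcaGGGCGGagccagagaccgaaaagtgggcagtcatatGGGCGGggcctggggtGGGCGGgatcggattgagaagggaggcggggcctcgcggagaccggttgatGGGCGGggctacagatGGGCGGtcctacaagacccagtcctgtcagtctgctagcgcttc
The 3 upstream sequences were unlike in composition. That of Lrp2 was 66.4% G and C with 18 CpG dinucleotides and 2 GC boxes, starting 143 and 88 bases before the start site, and that of Lrpap1 was 60.8% G and C with 14 CpG and 5 GC boxes. The Cubn sequence was 39.6% G and C, with 2 CpG and no GC box. Over 32851 RefSeq promoter windows of this length the median was 52.4% G and C with 6 CpG, and 32.7% held a GC box on either strand. RefSeq entries were matched for 8 of the 10 genes, all but Gipc1 and Tcn2, in 10 entries, of which 5 held a GC box. The letters GTTAAT of an HNF1-type motif were found in 1 entry, of Dab2 (6.43% of all windows), TATAAA in 1 entry, of Clcn5 (12.4%), and CCAAT in 1 entry, of Amn (33.8%), each searched on both strands. These matches describe the letters in the window and not binding.

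In Tcn2 and Amn, Ksp-Cre/Prdm16fl/fl mouse 3 was not the lowest. Tcn2 (chromosome 11, 3867077 to 3882078, minus strand, 2260 bp of exons) had 964 and 988 CPM in Prdm16fl/fl kidneys and 450, 463 and 572 CPM in Ksp-Cre/Prdm16fl/fl kidneys 1, 2 and 3. The groups were far apart, and here mouse 3 was the highest of its group, not the lowest. With means of 976 ± 17.2 CPM (SD, n = 2) and 495 ± 67.1 CPM (SD, n = 3), Tcn2 had a log2 fold change of -0.98 (SE 0.16) and an adjusted p of 0.0541 with edgeR's quasi-likelihood test. DESeq2 gave an adjusted p of 4.5e-06, and edgeR without mouse 3 gave -1.09 with an adjusted p of 0.000805, while other alternatives gave up to 0.521.

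Amn (chromosome 12, 111237530 to 111242860, plus strand, 13 merged exons, 1798 bp) was measured at 91.6 and 110 CPM against 66.2, 69.0 and 73.8 CPM. The 3 Ksp-Cre/Prdm16fl/fl values lay within a narrow band below both Prdm16fl/fl values, with mouse 3 again the highest of them. The means were 101 ± 13.2 and 69.7 ± 3.86 CPM, a log2 fold change of -0.53 (SE 0.13, edgeR adjusted p = 0.107, DESeq2 adjusted p = 0.0304), and without mouse 3 it was -0.57 (edgeR adjusted p = 0.0104, with alternatives up to 0.640). The gene Gm51960 overlaps Amn on the other strand with 47 to 69 counts per library, and whether counting used the strand is not stated.

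**Figure D2:**
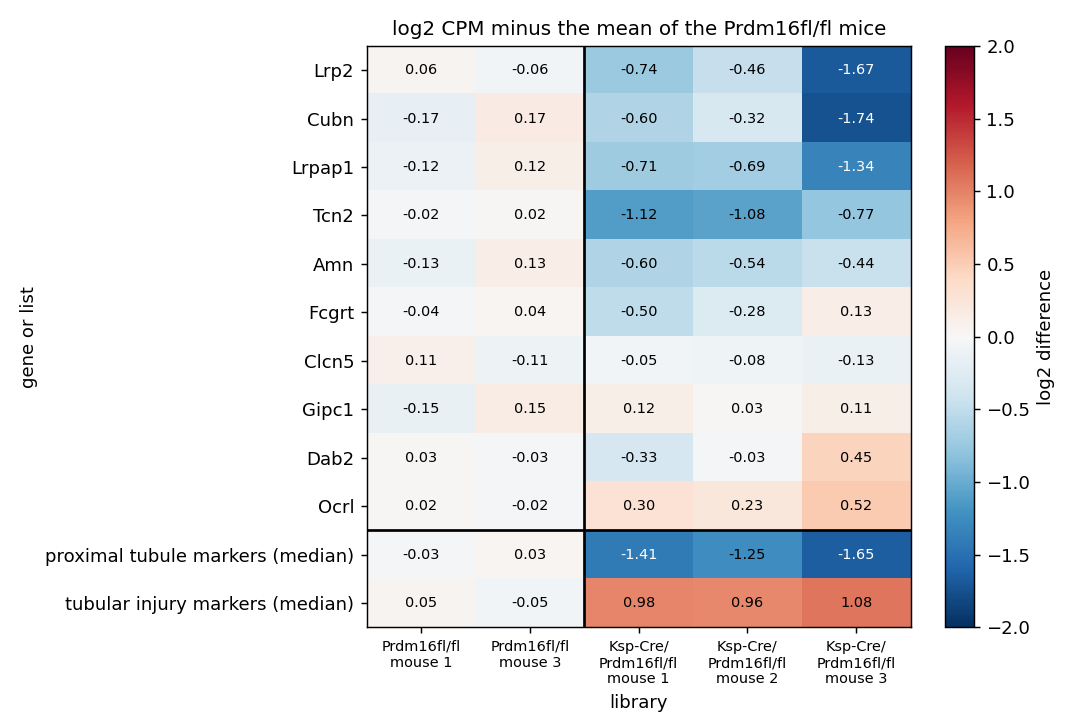
Log2 CPM less the Prdm16fl/fl mean, for each of the 10 genes and each library, with the medians of the proximal tubule and tubular injury marker lists below the line. In Ksp-Cre/Prdm16fl/fl mouse 3, Lrp2, Cubn and Lrpap1 reach -1.67, -1.74 and -1.34 while Dab2 stands at 0.45 and Ocrl at 0.52. Tcn2 and Amn are lower in all 3 Ksp-Cre/Prdm16fl/fl kidneys, least so in mouse 3.

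Dab2, the clathrin adaptor of megalin (chromosome 15, 6329269 to 6470196, plus strand), had 520 and 501 CPM in Prdm16fl/fl kidneys and 406, 500 and 697 CPM in Ksp-Cre/Prdm16fl/fl kidneys. The Ksp-Cre/Prdm16fl/fl group held both the lowest and the highest value of the 5 libraries, and mouse 3, the lowest for Lrp2, was the highest for Dab2. The log2 fold change was 0.07 (SE 0.24, edgeR adjusted p = 0.907) with all libraries and -0.17 (edgeR adjusted p = 0.377) without mouse 3, so its sign rested on that mouse, and the adjusted p of its alternatives ran up to 0.985.

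Gipc1, whose PDZ protein also binds the megalin tail (chromosome 8, 84376037 to 84391418, plus strand), was at 57.3 and 70.4 CPM against 68.9, 64.7 and 68.6 CPM. All 3 Ksp-Cre/Prdm16fl/fl values fell between the Prdm16fl/fl values, and the log2 fold change was 0.08 (SE 0.13, edgeR adjusted p = 0.781).

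Of the endosomal genes, Ocrl was separated upward and Clcn5 overlapped between the genotypes. Clcn5 (X chromosome, 7020049 to 7185597, minus strand), the gene mutated in Dent disease, had 106 and 91.3 CPM against 94.9, 93.0 and 90.0 CPM, with overlapping groups and a log2 fold change of -0.09 (SE 0.12, edgeR adjusted p = 0.713) that was 0.02 when scaled by library size. Ocrl (X chromosome, 47001289 to 47055305, plus strand), the gene of Lowe syndrome, was the only one of the 10 with higher values in every Ksp-Cre/Prdm16fl/fl mouse. It had 35.1 and 33.9 CPM in Prdm16fl/fl kidneys and 42.4, 40.5 and 49.6 CPM in Ksp-Cre/Prdm16fl/fl kidneys, means of 34.5 ± 0.837 and 44.2 ± 4.81 CPM. The log2 fold change of 0.36 (SE 0.13) had an unadjusted p of 0.0367 and an adjusted p of 0.233 by edgeR's quasi-likelihood test, and it was 0.27 with an adjusted p of 0.105 without mouse 3, the lowest of its alternatives, which reached 0.778.

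Fcgrt (chromosome 7, 44742417 to 44753246, minus strand) stood at 206 and 217 CPM in Prdm16fl/fl kidneys and at 149, 175 and 232 CPM in Ksp-Cre/Prdm16fl/fl kidneys. As with Dab2, mouse 1 of the Ksp-Cre/Prdm16fl/fl group was the lowest and mouse 3 the highest of the 5 libraries, and the groups overlapped. The log2 fold change was -0.19 (SE 0.20, edgeR adjusted p = 0.641) and, without mouse 3, -0.38 (edgeR adjusted p = 0.0427, with other alternatives up to 0.925).

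**Figure D3:**
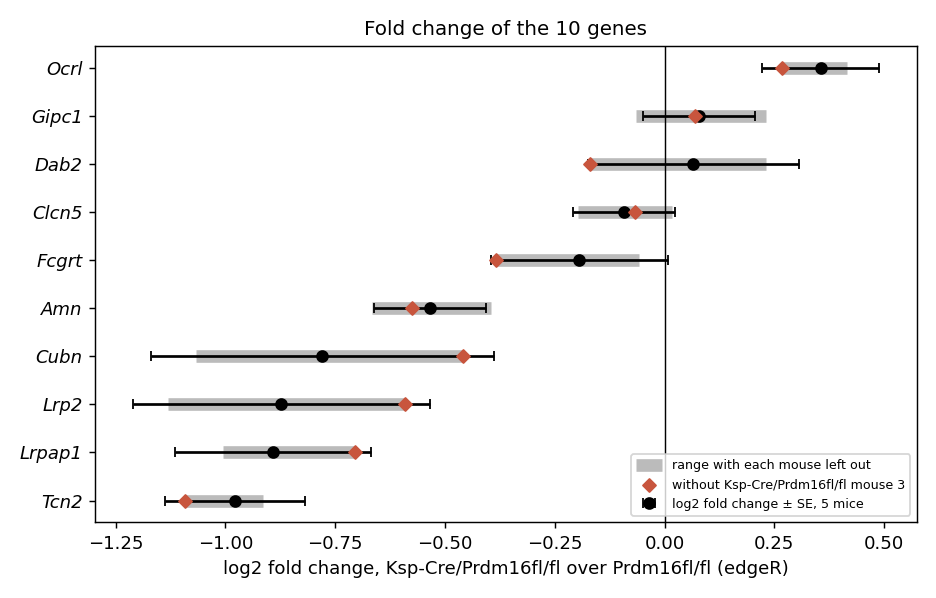
Log2 fold change of the 10 genes, Ksp-Cre/Prdm16fl/fl over Prdm16fl/fl UIRI kidneys, with points and lines for the estimate ± SE from 5 mice. Grey bands span the estimates with each mouse left out in turn, and diamonds are without Ksp-Cre/Prdm16fl/fl mouse 3. The bands of Tcn2, Lrpap1, Lrp2, Cubn, Amn and Fcgrt stay below 0, that of Ocrl stays above it (0.27 to 0.42), and those of Dab2, Clcn5 and Gipc1 cross it.

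Per length of transcript the genes ranged widely. In the deposited TPM, a level scaled by gene length, Tcn2 was the highest in Prdm16fl/fl kidneys with a mean of 944 ± 48.5 (SD, n = 2), at the percentile 99.2 of the tested genes. Fcgrt (264 ± 8.61 TPM) and Lrpap1 (257 ± 11.7 TPM) followed with overlapping values, then Dab2 (177 ± 16.8 TPM), then Lrp2 (127 ± 16.0 TPM) and Amn (122 ± 7.66 TPM), which also overlapped. Below them stood Gipc1 (57.9 ± 4.42 TPM), Cubn (43.8 ± 4.15 TPM), Clcn5 (22.8 ± 3.95 TPM) and Ocrl (12.2 ± 1.14 TPM), each apart from its neighbours, with Ocrl at the percentile 50.3.

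The order of TPM levels in Ksp-Cre/Prdm16fl/fl kidneys was Tcn2 (563 ± 37.6, SD, n = 3), Fcgrt (271 ± 43.9), Dab2 (216 ± 45.9), Lrpap1 (166 ± 47.8), Amn (99.9 ± 2.52), Lrp2 (82.7 ± 35.6), Gipc1 (72.4 ± 4.33), Cubn (30.9 ± 14.8), Clcn5 (25.2 ± 2.24) and Ocrl (18.4 ± 0.819). Dab2 had moved above Lrpap1 and Amn above Lrp2, but the values of Fcgrt, Dab2 and Lrpap1 overlapped in sequence. So did those of Amn, Lrp2 and Gipc1 and those of Cubn and Clcn5. Lrpap1 also overlapped with Lrp2, and Cubn with Ocrl. TPM carries no TMM scaling, and the mean TPM of Fcgrt and Clcn5 was slightly higher in Ksp-Cre/Prdm16fl/fl kidneys where their CPM was slightly lower.

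Ratios within a library, which need no scaling between libraries, were taken from the deposited FPKM, which scales a count by exon length and library total, for the receptor pairs. Cubn to Lrp2 was 0.297 and 0.406 in Prdm16fl/fl kidneys and 0.383, 0.382 and 0.330 in Ksp-Cre/Prdm16fl/fl kidneys, so the 3 latter values fell between the former. Lrpap1 to Lrp2 was 1.81 and 2.30 against 2.08, 1.74 and 2.57, with overlapping groups. Amn to Cubn was 2.86 and 2.73 against 2.78, 2.40 and 6.88, level in 4 libraries and higher in mouse 3, the library in which Cubn was lowest. The log2 ratios differed between genotypes by 0.07, 0.04 and 0.36 in that order, with two-sided exact permutation p of 0.80, 1.0 and 1.0 over the 10 ways to divide the libraries. After Benjamini-Hochberg adjustment over the 3 ratios each was 1.0, and the smallest p this design allows is 0.20, so the test could not have passed 0.05 for any of them.

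**Figure D4:**
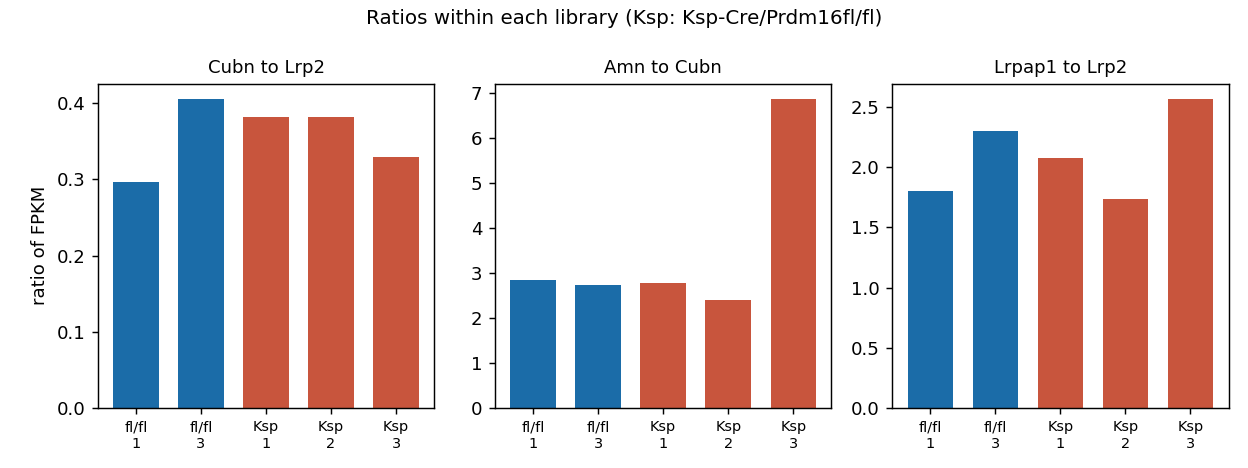
Ratio of FPKM of Cubn to Lrp2, Amn to Cubn and Lrpap1 to Lrp2 in each library, with vertical axes from 0. Each bar is 1 mouse, blue for Prdm16fl/fl and red for Ksp-Cre/Prdm16fl/fl. The Amn to Cubn ratio is 6.88 in Ksp-Cre/Prdm16fl/fl mouse 3 and 2.40 to 2.86 in the other 4 mice.

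The genes whose pattern over the 5 libraries lay closest to that of Lrp2 were sought among the 6864 tested genes whose mean log2 CPM reached 5, by the root mean square (RMS) of the log2 differences after each gene was set to its Prdm16fl/fl mean. The 5 closest were Rtn4ip1, a mitochondrial oxidoreductase gene (RMS 0.052), the cytochrome P450 genes Cyp2j5 (0.063) and Cyp2j13 (0.083), Them7 (0.085) and Pdzk1, which encodes a brush-border scaffold (0.085). Pdzk1, for example, had 434 and 399 CPM against 267, 302 and 146 CPM, the same order of libraries as Lrp2. Among the 10 genes, Cubn was nearest to Lrp2 (RMS 0.171, with 12 genes of the pool nearer) and Lrpap1 next (RMS 0.213, with 24 nearer), then Tcn2 (0.519) and Amn (0.567). Clcn5, Fcgrt, Gipc1, Dab2 and Ocrl lay between 0.775 and 1.13. These distances describe 5 libraries and carry no test.

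Lists of the wider endocytic machinery are given by counts and medians. Of 16 genes of the clathrin coat and its adaptors none passed the edgeR threshold, 5 were separated upward and 1 downward, and the median log2 fold change was 0.13 (0.075 without Ksp-Cre/Prdm16fl/fl mouse 3), with Cltb, a clathrin light chain, lowest at -0.33. In 24 tested genes of endosome sorting and recycling, out of 26 sought, none passed, 4 were separated upward and 6 downward, and the median was -0.03 (0.08 when scaled by library size), from -0.71 (Ehd3, an endosomal membrane-remodelling ATPase gene) to 0.27 (Appl1, a Rab5 effector). The other 5 genes of endosomal and lysosomal CLC transport had a median of -0.02 (0.08 when scaled by library size), with none passing. They are relatives of Clcn5 together with Ostm1, which encodes a subunit and is not of that family. Their values lay between Clcn3 (-0.34) and Ostm1 (0.26), the only 1 above 0. Of 3 relatives of the adaptors, none passed, and the median was -0.29 (-0.42 to -0.15 with each mouse left out), with Gipc3 at -0.41 and Dab1 at 0.87.

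Most other LDL receptor family genes lay on the other side of 0 from Lrp2. Of 11, Lrp1b did not pass the filter on low counts, and in the remaining 10 the median log2 fold change was 0.26, with 7 positive and 3 negative, none passing the edgeR threshold, 5 separated upward and 0 downward. Lrp8 had the highest value, 1.60 (edgeR adjusted p = 0.162), with 3.78 and 3.87 CPM in Prdm16fl/fl kidneys and 6.98, 8.74 and 19.1 CPM in Ksp-Cre/Prdm16fl/fl kidneys.

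Of 11 other genes of cobalamin uptake and use, the pathway of Tcn2, none passed the edgeR threshold, 5 were separated downward and 0 upward, and the median was -0.14 (-0.03 when scaled by library size and -0.28 without Ksp-Cre/Prdm16fl/fl mouse 3). Mmut, the mitochondrial methylmalonyl-CoA mutase, which uses cobalamin as a cofactor, was the lowest at -0.82 (edgeR adjusted p = 0.0552), with 150 and 144 CPM against 83.2, 93.9 and 72.3 CPM, and Mtrr was the highest at 0.09. Of 8 genes listed for ligands of the receptors in filtrate, among them the folate receptor gene Folr1, 5 passed the filter on low counts (Apoa1, Cblif and Scgb1a1 did not). Alb and Rbp4 passed with only 9 to 30 and 4 to 12 counts per library, and kidney RNA does not measure the protein in filtrate. None passed the edgeR threshold, 3 were separated downward and 1 upward, and the median was -0.44, the value of Folr1. Ttr, the transthyretin gene, was lowest at -1.74 (edgeR adjusted p = 0.0541). Gc, the vitamin D binding protein gene, was highest at 0.38 (edgeR adjusted p = 0.185). Without Ksp-Cre/Prdm16fl/fl mouse 3 the median was -0.97, but Rbp4 missed the filter in that fit and was not part of that median. Folr1, Alb, Ttr and Gc stood at -0.46, -1.48, -1.97 and 0.42 there, against -0.44, -1.35, -1.74 and 0.38 with all libraries.

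**Figure D5:**
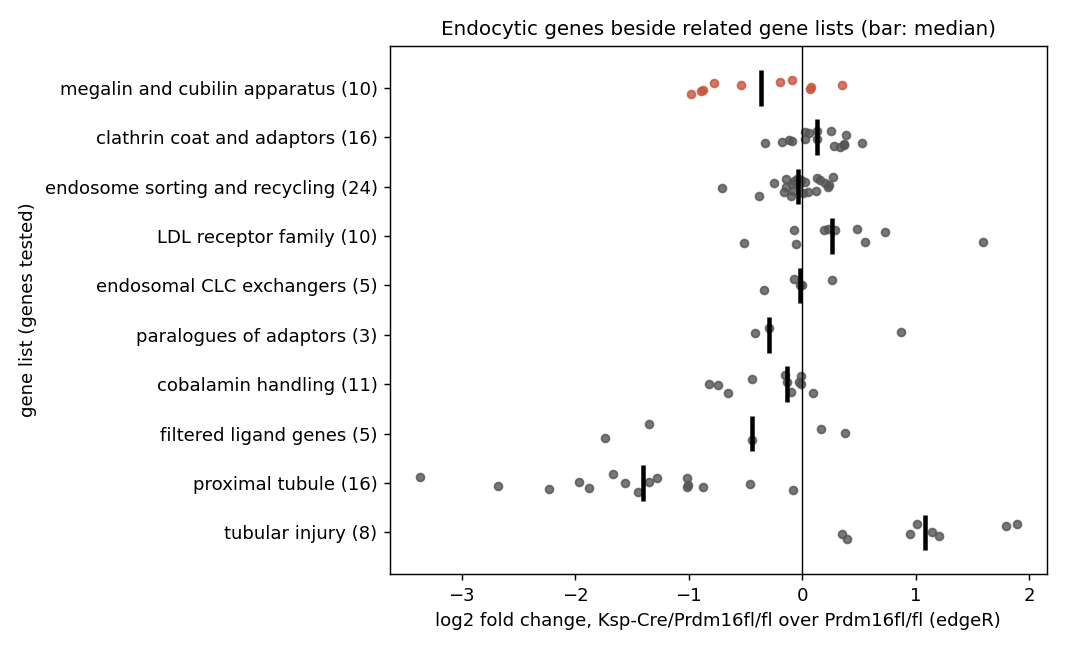
Log2 fold change of each tested gene, Ksp-Cre/Prdm16fl/fl over Prdm16fl/fl UIRI kidneys, by gene list, with the number of genes tested in parentheses and a black bar at the median. The 10 genes of the megalin and cubilin apparatus (red, median -0.36) lie between the proximal tubule markers (median -1.40) and the clathrin coat genes (median 0.13). The tubular injury markers have a median of 1.08.

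Markers of the proximal tubule, where the apparatus works, stood lower in the same kidneys. All 16 proximal tubule markers had a negative log2 fold change, 13 were separated downward, and 4 passed the edgeR threshold (Slc22a8, Miox, Fbp1 and Acsm2). Their median was -1.40, and it was -1.41, -1.25 and -1.65 in Ksp-Cre/Prdm16fl/fl kidneys 1, 2 and 3, so that mouse 3 was lowest in this list as in Lrp2. Their summed level was 32078 to 40199 CPM in Prdm16fl/fl kidneys and 10925 to 19157 CPM in Ksp-Cre/Prdm16fl/fl kidneys, none of them was at 0, and in this sum mouse 3 was the highest of its group. The markers ran from Slc7a13 (-3.37) to Slc4a4 (-0.08). The 8 tubular injury markers had a median of 1.08 with 6 separated upward and 0 passing, from Cdh6 (0.35) to Lcn2 (1.89), and a summed level of 14978 to 15554 CPM against 32080 to 38025 CPM. The part of either change in the values of the 10 genes was not tested.

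Markers of other kidney cells are given by their medians, and 1 of them passed the edgeR threshold. Median log2 fold changes were -0.72 for the thick ascending limb (from Egf, -3.69, to Cldn16, -0.18), -1.0004 for the distal convoluted tubule (Pvalb, -3.93, to Trpm6, -0.23), -0.60 for principal cells (Fxyd4, -0.72, to Aqp2, -0.21), -0.73 for intercalated cells (Slc4a1, -1.74, to Atp6v0d2, -0.31) and -0.64 for podocytes (up to Synpo, -0.06), where Nphs1 was the gene that passed. They were 0.01 for endothelium (Kdr, -0.67, to Flt1, 0.74), 0.44 for fibroblasts and myofibroblasts (Acta2, 0.23, to Col3a1, 0.92), 0.26 for macrophages (Adgre1, -0.0044, to Mrc1, 0.41), and -0.24 for lymphocytes (up to Cd8a, 0.06). Leaving out 1 mouse moved several of these medians by over 1.5 times. The distal convoluted tubule stood at -0.57, principal cells at -0.39, podocytes at -0.40 and macrophages at 0.10 without Prdm16fl/fl mouse 1, and fibroblasts at 1.05 and macrophages at 0.44 without Prdm16fl/fl mouse 3. Macrophages stood at 0.13 without Ksp-Cre/Prdm16fl/fl mouse 1 and at 0.42 without mouse 3 of that group, and lymphocytes at -0.61 without its mouse 2 and at -0.013 without its mouse 3. All 5 red blood cell genes were separated upward, from Alas2 (2.14) to Hba-a2, for which both Prdm16fl/fl libraries held a count of 1, and their summed level was 6.67 to 10.8 CPM against 40.5 to 151 CPM. Their part in the values of the 10 genes was not tested.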

How the data were processed

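Kidney RNA-seq of 2 Prdm16fl/fl and 3 Ksp-Cre/Prdm16fl/fl mice after UIRI was analysed, with groups taken from the sample labels. The methods describe oligo(dT)-selected RNA and 150 bp reads. The authors deposited raw counts per gene without normalization. Beside them the authors deposited TPM and FPKM, which recomputation from the counts and merged exon lengths matched to within rounding. The submitters' processing notes list CASAVA, featureCounts 2.0.1, DESeq2 1.16.1 and the build hg38, although the genes are mouse genes. The aligner, the annotation and the use of strand are not given in the sources used here. Coordinates in the files differ from GRCm38.

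Of 35478 genes listed, 9845 had 0 counts in all libraries, and the broken lines of 5 genes were rejoined. No 2 libraries were duplicates. In edgeR 4.0.16 under R 4.3.3, filterByExpr kept 16394 genes, all 10 members among them. TMM scaling and the quasi-likelihood test of genotype, with no covariate, followed. Adjusted p is Benjamini-Hochberg over all genes tested, and a gene passed at 0.05. Log2 CPM values used a prior count of 2. Ratios were tested by two-sided exact permutation. All 10 members are named. From each of 19 other lists the text names the genes that passed and the highest and lowest log2 fold change, of which some are not reported here. The members, lists and rules were chosen with earlier results of these data known.

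Alternatives were DESeq2 1.42.0, scaling by library size, upper quartile or DESeq2 size factors, no filter beyond 1 count, at least 10 counts in every library, omission of each mouse, a block for mouse number, a loess correction (span 0.3) on gene length and GC content for 15223 genes, a log2 fold change of at least 1, and limma 3.58.1 on log2 FPKM with a pseudocount of 1 or 0.1, where 2 libraries reached an FPKM of 1. Ratios were recomputed from counts and from FPKM + 1. The count of separated genes without Ksp-Cre/Prdm16fl/fl mouse 3 and the list medians without each mouse were added after the values were seen. The main edgeR fit, DESeq2 and limma with a pseudocount of 1 were tried beforehand on simulated counts that held no outlying library. The permutation test, the block for mouse number and the length and GC correction were not. Python 3.11.15 and pandas 2.3.3 were used for tables.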

Additional observations from a re-analysis of the deposited data

How the results depend on the processing

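With 2 and 3 mice, the number of genes that passed an adjusted p of 0.05 depended on which libraries were used and on the processing. Among the 10 genes 0 passed with all libraries, 3 with DESeq2 and 1 (Tcn2) with no filter beyond 1 count, and leaving out each mouse gave 0 to 5. Over all genes, 160 passed, against 1200 with DESeq2, 51 with library size scaling, 471 without the filter, 42 with the length and GC correction, 69 and 49 with limma on log2(FPKM + 1) and log2(FPKM + 0.1), and 0 to 3053 with each mouse left out. The median log2 fold change of the 10 genes stayed between -0.45 and -0.30 with each mouse left out. The directions of Lrp2, Cubn, Amn, Ocrl, Fcgrt, Lrpap1 and Tcn2 held in all 15 alternatives. Clcn5 changed sign to 0.020 with library size scaling and to 0.021 and 0.023 with the limma fits. With each mouse left out, Clcn5 ranged from -0.20 to 0.017 and Gipc1 from -0.066 to 0.23, both changing sign without Prdm16fl/fl mouse 1, and Dab2 from -0.17 to 0.23, changing sign without Ksp-Cre/Prdm16fl/fl mouse 3. The causes were not tested.

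The log2 differences of the ratios ranged, with each mouse left out, from -0.16 to 0.30 for Cubn to Lrp2, from -0.11 to 0.65 for Amn to Cubn and from -0.13 to 0.22 for Lrpap1 to Lrp2, with -0.10 for the last without Ksp-Cre/Prdm16fl/fl mouse 3. List medians near 0 crossed it in the same way (endosome sorting -0.057 to 0.0020, CLC transport -0.092 to 0.067, endothelium -0.052 to 0.12).

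Mouse numbers are shared by the genotypes, but deviations of same-numbered mice from their group means correlated at only 0.0010 (mouse 1) and -0.022 (mouse 3), so nothing shows that the samples were paired. The deviations of Prdm16fl/fl mice 1 and 3 mirror each other, so this check could hardly have shown pairing. With the mouse number as a replicate block 0 genes passed over all genes (2061 at an unadjusted p under 0.05), 0 of the 10 passed, and their median was -0.36, with Lrp2 at -1.21 (edgeR adjusted p = 0.205). Number 2 occurs only in the Ksp-Cre/Prdm16fl/fl group, so this fit compared the genotypes through mice 1 and 3 alone. Little was left in it to measure the spread between mice, so no conclusion is drawn from 0 passing.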
